A study of Mus musculus with 5 samples.

Results

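The cells described here were the lung capillary endothelial cells with an aerocyte profile, 5105 of the 29500 cells that passed the quality filter in the series and of 20571 endothelial cells. A barcode entered the filter with at least 700 detected genes and between 0.1 and 15% mitochondrial UMIs (unique molecular identifiers, the counted cDNA molecules). An endothelial cell then held at least 3 UMIs of Cdh5, Pecam1 and Cldn5 together, none of the epithelial gene Epcam, the mesenchymal genes Pdgfra and Pdgfrb or the leukocyte gene Ptprc, and none of the cell cycle genes Mki67 and Top2a. Among these an aerocyte held at least 3 UMIs of Car4, Ednrb and Fibin together, and more of these than of Gpihbp1, Plvap and Aplnr. The mirror-image rule, with the sums exchanged, gave 13638 general capillary cells, which serve below as the closest other cell type. Cells were thus chosen by their own UMIs of the gate genes, so levels of those genes and the separation of the 2 capillary types are descriptions without a test.

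The alveolar capillary bed is a mosaic of 2 endothelial types. Aerocytes are large, thin, ramified cells spread over the gas-exchange face next to the alveolar epithelium, and carry the membrane-bound carbonic anhydrase Car4, the endothelin receptor Ednrb and the transcription factor Tbx2. General capillary cells carry the apelin receptor Aplnr, hold the lipoprotein lipase anchor Gpihbp1, regulate vasomotor tone and act as progenitors in repair. Aerocytes respond to VEGF-A from the alveolar epithelium through the receptor Kdr and express apelin (Apln), the ligand of Aplnr.

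The series held 5 single-cell RNA libraries of adult mouse lung (10x Chromium 5′ chemistry, C57BL/6 background), each pooled from mice that carried 1 of 3 antibody hashtags, after sorting of viable cells negative for CD45 and Ter119. Mice labelled Itgb1 iKO carried floxed Itgb1, the gene of β1 integrin, with Cre driven by a doxycycline-inducible transactivator under the SP-C promoter, so that the target cell was the alveolar type 2 (AT2) epithelial cell and not the endothelium; they are called KO here. Controls labelled Itgb1 fl/fl were littermates with floxed alleles and neither transgene, and both genotypes had received doxycycline before the challenge at 3 months of age. Lungs were taken after a single intratracheal dose of LPS (lipopolysaccharide, a bacterial endotoxin) or of PBS as vehicle: fl/fl at 7 days after LPS, KO at 7 days after LPS, KO at 7 days after PBS, fl/fl at 21 days after LPS and KO at 21 days after LPS. The 21-day libraries were enriched for EPCAM-positive epithelial cells, and no fl/fl PBS group was analysed here.

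Each hashtag was taken as 1 mouse, and whether a tag marked more than 1 animal is not given in the sources used here. The study states that 3 to 4 mice per group were pooled, so a library may hold more animals than tags. Each group was 1 library, so library and group cannot be told apart, and p-values measure the spread between mice within libraries. The 5 libraries held between 410 and 1934 aerocytes with medians of 2291 to 2980 UMIs per aerocyte, and 3056 aerocytes carried exactly 1 hashtag and could be given to a mouse, from 37 to 408 per mouse. Aerocytes carried fewer hashtag counts than general capillary cells (medians of 90.5 to 520 and of 437.5 to 1181 per library), and 34.7 to 67.4% of them were singly tagged against 77.8 to 90.4%. All 3 fl/fl mice at day 7 expressed Xist and all 3 KO LPS mice at day 7 expressed Y-linked genes, so genotype and sex cannot be told apart in that comparison. Among KO PBS mice, mouse 1 expressed mostly Xist and the other 2 mostly Y-linked genes. At day 21 fl/fl mice 2 and 3 and KO mouse 1 expressed mostly Xist, KO mice 2 and 3 mostly Y-linked genes, and fl/fl mouse 1 both, so that sex was unevenly spread there as well and whether that tag marked 1 animal is uncertain. Doublets were predicted for 12.1 to 13.5% of day 7 aerocytes and 1.46 to 2.67% of day 21 aerocytes. For general capillary cells the values were lower, 3.86 to 5.82% at day 7 and 0.781% at day 21. Pairs of libraries shared 0 to 4 aerocyte barcodes. In AT2 cells, taken as cells with at least 50 Sftpc UMIs, at least 1 of Epcam and none of Cdh5, Pecam1 or Ptprc, Itgb1 stood at 276 CPM (counts per 1000000 UMIs of the summed cells) in fl/fl and 175 in KO at day 7 after LPS, 117 in KO after PBS (30 UMIs in 26 cells), and 364 in fl/fl and 154 in KO at day 21. Aerocytes held 661 to 1037 CPM of Itgb1 in all 5 libraries.

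Markers outside the gate followed it. Tbx2, a T-box transcription factor, was found in 70.9 to 82.0% of aerocytes per library and in 4.17 to 7.97% of general capillary cells, and Apln in 59.9 to 67.3% and 2.86 to 5.33%. In AT2 cells, which should lack both genes, no library exceeded 3.74% for either. The levels rose with the gate sum. Endothelial cells with no UMI of Car4, Ednrb or Fibin (7610 cells) held 23.02 CPM of Tbx2 and 14.2 CPM of Apln. The 128 cells just outside the threshold, with a sum of 2, held 149 and 66.9 CPM, and the 133 cells just inside, with a sum of 3, held 257 and 173 CPM. Most members were far from that edge: 4255 of them had a sum of 10 or more, with 911 CPM of Tbx2 and 597 CPM of Apln. There were 913 members with at least 3 UMIs of each gate sum, and in them the general capillary gene Gpihbp1 stood at 950 CPM.

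The aerocyte profile was compared with that of general capillary cells of the same 15 mice, over 4271 genes outside the gates with a mean of at least 50 CPM in 1 of the types. In aerocytes 556 genes were higher and 734 lower in every mouse, of which 273 and 306 differed at least 2-fold in the means. The Tbx2 mean was 837 CPM in aerocytes (689 to 1041 over mice) and 29.8 CPM in general capillary cells (17.6 to 45.1). Apln stood at 591 and 19.8 CPM. Both genes did not overlap between the cell types in any of the 5 groups, as the plot of ratios between the 2 capillary types shows for all genes named by rank.

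**Figure D1:**
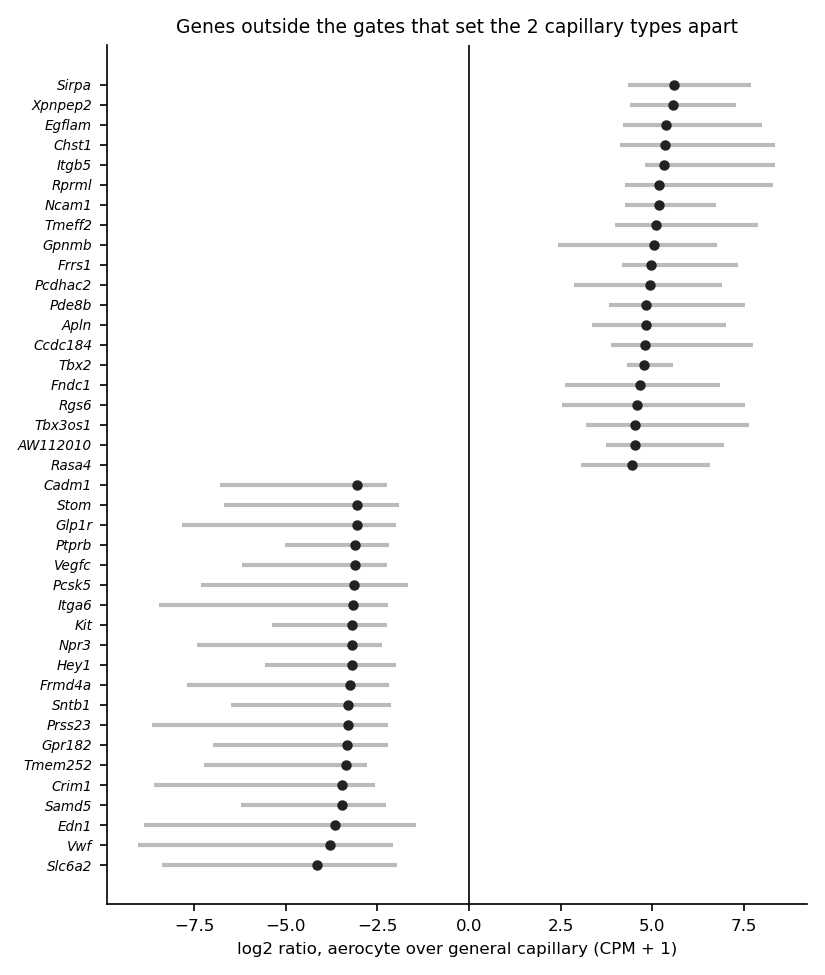
Log2 ratio of aerocyte over general capillary CPM (1 CPM added; x axis) for the 20 genes highest and the 20 lowest in aerocytes (y axis); points give the ratio of the means of 15 mice and bars the range over mice. No bar crosses 0, since the genes were picked for the same direction in every mouse, and the points run from 5.61 for Sirpa down to -4.16 for Slc6a2.

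The genes that stood highest in aerocytes included receptors, adhesion molecules and matrix proteins. Sirpa, the receptor for the CD47 "don't eat me" signal, was at 206 CPM against 3.25. Chst1, a sulfotransferase that acts on keratan sulfate, was at 295 against 6.29 CPM. Itgb5, the β5 integrin chain that pairs with αv to bind vitronectin, was at 355 against 7.92 CPM. These 3 genes were higher in aerocytes of all 15 mice. The extracellular matrix protein Egflam, the adhesion molecule Ncam1, the aminopeptidase Xpnpep2, the G-protein regulator Rgs6 and the phosphodiesterase Pde8b were among the other genes of the first 20. Of the 15 further aerocyte genes measured, 14 were higher and 1 lower in every mouse, with a median log2 ratio of 2.69 against -0.06 over all genes compared. They included Emp2, a tetraspan membrane protein of alveolar epithelium and endothelium (3937 against 205 CPM), Igfbp7, a secreted binder of insulin-like growth factors (11342 against 749.6 CPM), and Kdr (2600 against 397 CPM).

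The genes that stood lowest in aerocytes included several known from larger vessels and from general capillary cells. The general capillary rule did not exclude arterial or venous cells. Listed venous markers (Slc6a2, Vwf and Prss23) and the arterial marker Hey1 were among these genes, and the part of such cells in the values was not tested. Vwf, the platelet-binding von Willebrand factor, was at 17.5 CPM in aerocytes and 256 in general capillary cells. Edn1, which encodes the precursor of the Ednrb ligand endothelin-1, was at 25.5 against 334 CPM. Ptprb, the endothelial phosphatase that restrains the TIE2 receptor, was at 197 against 1704 CPM, and Tek, which encodes TIE2, at 102 against 721 CPM. Each was lower in aerocytes of all 15 mice. The stem cell factor receptor Kit was at 52.2 against 483 CPM, while its ligand Kitl ran the other way, at 2082 against 361 CPM. Likewise Vegfa was at 54.8 against 452 CPM and its receptor Kdr higher in aerocytes. Of 12 general capillary genes measured, 11 were lower in every mouse (median log2 ratio -2.81), where 734 of all 4271 genes were.

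Immune surface genes split between the types. All 6 MHC class II genes measured, which present peptides to CD4 T cells, were lower in aerocytes of every mouse, with a median log2 ratio of -2.88. Cd74, the invariant chain that escorts class II molecules, was at 532 against 3814 CPM. Of 7 leukocyte adhesion genes, 5 were higher and 1 was lower in every mouse (median 1.36). Icam1, the ligand of leukocyte β2 integrins, was at 749.5 against 205 CPM, and Icam2 at 3691 against 1316 CPM. Ifitm3, an interferon-induced restriction factor, was at 602 against 3146 CPM. Of 31 interferon-stimulated genes 18 were lower and 1 was higher in every mouse (median -0.57). Of 18 immediate early genes 10 were lower and none higher (median -0.75). Over all 4271 genes compared, 734 were lower and 556 higher in every mouse (median -0.06).

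Aerocytes made up a smaller share of endothelial cells in KO LPS mice at day 7 than in either other day 7 group. The shares were 19.5, 21.5 and 25.3% in fl/fl LPS mice, 12.2, 11.4 and 16.1% in KO LPS mice and 18.3, 19.2 and 18.6% in KO PBS mice. At day 21 they were 16.9, 21.5 and 25.9% in fl/fl mice and 37.9, 26.7 and 35.2% in KO mice. The groups did not overlap in any of these 3 comparisons. The KO LPS mean at day 7 was 13.2 ± 2.54% (SD, n = 3), against 22.1 ± 2.94% (n = 3) in fl/fl mice, a difference of -8.90 percentage points (two-sided exact permutation test, p = 0.1). Against the KO PBS mean of 18.7 ± 0.439% (n = 3) the difference was -5.50 points (exact permutation p = 0.1), and at day 21 the KO mean of 33.3 ± 5.86% was 11.8 points above the fl/fl mean of 21.5 ± 4.52% (n = 3 each; exact permutation p = 0.1). With 3 mice against 3, 0.1 is the smallest p the test can give, so no share comparison could pass 0.05. With cells given to a mouse only where 1 hashtag held over 80% of the tag counts, the KO LPS and KO PBS mice overlapped (12.4, 20.8 and 13.9% after PBS; difference -3.73 points, exact permutation p = 0.2). The day 21 groups then overlapped too, at 3.61, 33.4 and 12.5% in fl/fl and 41.7, 28.8 and 9.80% in KO mice (exact permutation p = 0.5), with 3 and 5 aerocytes left in the lowest mouse of each.

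Over whole libraries, with cells without a single hashtag included, the shares were 26.0% (1605 of 6180; 95% Clopper-Pearson interval 24.9 to 27.1%), 16.1%, 24.4%, 38.2% and 46.3% in the same order of groups. Cells without a single hashtag had higher shares, from 26.9% in the KO LPS library at day 7 to 78.2% in the KO library at day 21, so the per-mouse shares understate the library shares. The counting intervals cover sampling of cells only. Shares of sorted and dissociated cells also depend on how well each type survives dissociation, and loss of aerocytes from the lung and poorer recovery at dissociation cannot be told apart here.

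**Figure D2:**
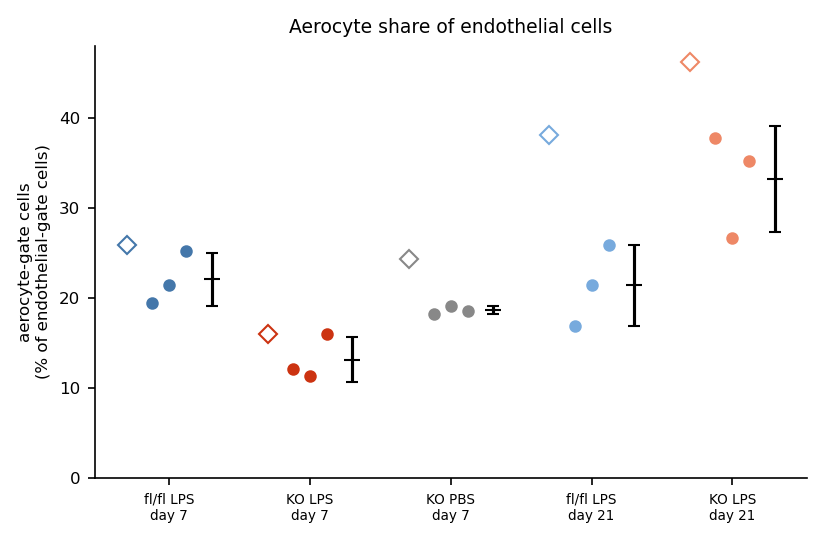
Aerocytes as a percentage of endothelial cells (y axis) in each group (x axis); filled points are mice, open diamonds the whole library with untagged cells, and bars the mean ± SD of 3 mice. The 3 KO LPS mice at day 7 lie between 11.4 and 16.1%, below all other day 7 mice, and the 3 KO mice at day 21 lie between 26.7 and 37.9%.

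The defining genes Car4, Fibin, Ednrb, Tbx2 and Apln were read in aerocytes of every mouse. In cells gated without the gene itself, Car4 was 7708, 7974 and 8098 CPM in fl/fl mice at day 7, 7755, 6373 and 6958 CPM in KO LPS mice and 7458, 7927 and 8600 CPM in KO PBS mice; the KO LPS mice overlapped both other groups. At day 21 it was 4874, 6251 and 5440 CPM in fl/fl and 5693, 6974 and 6234 CPM in KO mice, again with overlap. Fibin, in cells gated without it, was 1538, 1484 and 950 CPM in fl/fl mice at day 7. It was 1138, 1079 and 944 CPM in KO LPS mice and 2135, 1346 and 1380 CPM in KO PBS mice. The KO LPS mice thus lay below the KO PBS mice without overlap, and overlapped the fl/fl mice. Fibin at day 21, and Ednrb in every comparison, overlapped when read the same way. These gate genes were not tested. In the day 7 groups, in that order, the Tbx2 level was 719, 689 and 711 CPM, 768, 908 and 765 CPM, and 967, 1041 and 978 CPM. The KO LPS mice thus lay above the fl/fl mice and below the PBS mice, and neither difference passed the threshold with edgeR (quasi-likelihood test, log2 fold change 0.18 ± 0.11 SE, adjusted p = 0.672 for KO over fl/fl; -0.32 ± 0.11, adjusted p = 0.0747 for LPS over PBS). DESeq2 called the second difference. Apln ranged from 356 to 755 CPM over the 15 mice and overlapped between all groups compared. Of the 15 further aerocyte genes tested, edgeR and DESeq2 called none between genotypes at either day. At an unadjusted p under 0.05 there were 3 at day 7 and 1 at day 21. Over all 7997 genes tested there were 754 and 736. The median log2 fold changes of the list were -0.02 at day 7 and 0.11 at day 21 (-0.01 and 0.02 over all genes).

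At day 7 after LPS, aerocytes of KO mice differed from those of fl/fl mice in 85 genes, 65 higher and 20 lower (edgeR quasi-likelihood test on UMIs summed per mouse, Benjamini-Hochberg adjusted p under 0.05), which was 1.06% of the 7997 genes tested. Of the 85 genes 4 were Y-linked and 2, Xist and Rtl8a, were on the X chromosome. The genes higher in KO mice included members of the circadian clock and a block of immediate early genes. In general capillary cells of the same mice 282 of 11093 genes were called, and an interaction test of the difference in response between the 2 cell types called 16 of 9699 genes (0.165%).

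Among 11 circadian genes tested, 4 were higher in KO mice and none lower, where 0.813% of all genes were called higher; the list median was 1.05 on the log2 scale. Dbp, a clock-output transcription factor, was at 37.1, 109 and 31.6 CPM in KO mice and 6.56, 5.64 and 4.37 CPM in fl/fl mice (log2 fold change 3.36 ± 0.49 SE, adjusted p = 0.000186, edgeR). Nr1d2, a repressor in the clock loop, was at 49.4, 61.8 and 48.3 CPM against 12.2, 16.0 and 20.1 CPM (1.68 ± 0.25, edgeR adjusted p = 0.000208). The groups did not overlap for either gene, nor for the paralogue Nr1d1 (1.73) or the related output factor Tef (1.75). Levels of Dbp were also higher in general capillary cells of KO mice (3.37), and the interaction test called no difference in response between the cell types (difference 0.01 ± 0.20). The hour at which each lung was taken is not given in the sources used here. With the Xist share of each mouse as a term in the fit none of the 11 was called. Within KO mice at day 7, edgeR also called Dbp and Bhlhe40 higher after LPS than after PBS, and none of the 11 lower. In that comparison 3.63% of all genes were called higher.

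Immediate early genes are transcribed within minutes of a stimulus without new protein synthesis. Of 20 tested, 8 were called higher in KO mice and none lower, where 0.813% of all genes were called higher. A positive log2 fold change was found for 19 of the 20 (median 0.60 against -0.01 over all genes). Nr4a1, an orphan nuclear receptor of this class, was at 90.0, 124 and 128 CPM in KO mice and 30.0, 34.8 and 23.6 CPM in fl/fl mice (1.92 ± 0.21, edgeR adjusted p = 1.18e-06). Fos, the AP-1 subunit, was at 515, 1032 and 761 CPM against 511, 382 and 317 CPM (0.90 ± 0.19, edgeR adjusted p = 0.00884). Both genes were higher in every KO mouse than in every fl/fl mouse, though for Fos the lowest KO and the highest fl/fl mouse nearly met. Klf2, the shear-stress-induced factor of quiescent endothelium, was at 2253, 3003 and 2791 CPM against 1897, 1392 and 1611 CPM (0.69 ± 0.12, edgeR adjusted p = 0.00204). Klf4, which acts beside Klf2 in endothelium, rose by 0.60 and Klf6 by 0.52, without overlap of the groups. Atf3, the phosphatase gene Dusp1 and the mRNA-decay factor Zfp36 also passed the edgeR test, at 0.88, 0.60 and 0.76, with overlapping mice. DESeq2 called the other 5 of the 8 but none of these. KO PBS mice, which had received no LPS, held 872, 971 and 962 CPM of Fos, above all 3 fl/fl LPS mice. Without KO LPS mouse 2, which had the highest Fos, Atf3, Klf2 and Klf4 levels of its group, 2 of the 20 were called, without fl/fl LPS mouse 3, 3 were, and with the Xist term 1 was.

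The promoters of 3 of these genes are shown because the cyclic-AMP response element, bound by CREB and ATF proteins, is a known element of immediate early promoters. The letters TGACG, the core of that element, were searched on both strands from 250 bases before to 50 after each transcription start. They occurred in 6 of the 8 immediate early genes called, in 4 of the 8 other tested members with a promoter window, and in 6837 of 32851 promoter windows of the genome (20.8%). The 150 bases before the start are printed 5′ to 3′ on the strand of the gene, from RefSeq on GRCm38.p6, with TGACG or its reverse complement CGTCA in capitals.
Fos, chr12:85473740-85473889, plus strand: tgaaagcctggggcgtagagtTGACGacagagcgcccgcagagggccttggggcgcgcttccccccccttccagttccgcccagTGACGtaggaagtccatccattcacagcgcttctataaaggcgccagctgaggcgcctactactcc
Nr4a1, chr15:101266696-101266845, plus strand: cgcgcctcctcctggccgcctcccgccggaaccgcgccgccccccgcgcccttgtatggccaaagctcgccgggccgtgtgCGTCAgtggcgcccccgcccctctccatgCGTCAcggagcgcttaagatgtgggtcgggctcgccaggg
Dusp1, chr17:26508473-26508622, minus strand: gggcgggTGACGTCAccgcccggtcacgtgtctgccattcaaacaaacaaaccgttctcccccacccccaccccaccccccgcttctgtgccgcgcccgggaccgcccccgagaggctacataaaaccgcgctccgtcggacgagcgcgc
A match describes the letters only and not the binding of a factor.

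Outside these groups Tuba1a, an α-tubulin, was at 1683, 1468 and 1482 CPM in KO LPS mice and 201, 171 and 184 CPM in fl/fl mice (3.03 ± 0.14, edgeR adjusted p = 1.09e-14). KO PBS mice held 1553, 1689 and 1764 CPM, and at day 21 the levels were 397, 221 and 422 CPM in fl/fl mice and 505, 496 and 458 CPM in KO mice. Tuba1a was thus high in both day 7 KO libraries and low in the other 3. Dpm1, a subunit of the mannosyl donor synthase, followed the same pattern, with 67.1, 89.0 and 78.0 CPM in KO LPS, 64.1, 68.0 and 78.5 CPM in KO PBS and 11.2, 6.58 and 16.6 CPM in fl/fl LPS mice at day 7. Reads of Tuba1a can also match other α-tubulin genes, and how the counting placed them is not given in the sources used here. Adrb1, the β1-adrenergic receptor, rose by 1.20 (127, 109 and 128 against 56.2, 48.9 and 50.7 CPM; edgeR adjusted p = 9.33e-05). Abca3, the lamellar body lipid transporter of AT2 cells, rose by 1.82 while the other 8 AT2 genes tested were not called.

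Genes lower in KO mice at day 7 by edgeR included a pair of MHC class I genes, which DESeq2 did not call. H2-Q6 was at 150, 109 and 150 CPM in KO mice and 286, 253 and 289 CPM in fl/fl mice (-1.03 ± 0.23, edgeR adjusted p = 0.0190), and H2-Q7 fell by 0.93; the 2 are near-identical neighbours whose reads may be exchanged. Of 17 class I genes these 2 were called lower and none higher (0.25% of all genes were called lower; list median -0.22). Cdkn1a, the cell cycle inhibitor p21, was at 314, 265 and 336 CPM against 514, 458 and 502 CPM (-0.71 ± 0.16, edgeR adjusted p = 0.0193). Ephb4, the ephrin receptor of veins and capillaries, was at 74.1, 87.2 and 76.1 CPM against 108, 123 and 137 CPM (-0.66 ± 0.17, edgeR adjusted p = 0.0473; not called by DESeq2). Gm8797, a predicted gene, was the largest fall apart from Xist, from 173, 156 and 159 CPM to 3.53, 1.82 and 7.43 CPM. Mitochondrially encoded genes gave 6 of the 20 calls in this direction (13 tested), led by mt-Co3 (-0.69), beside median mitochondrial shares of 1.07% in KO and 1.41% in fl/fl aerocytes; the part of this in the other calls was not tested.

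**Figure D3:**
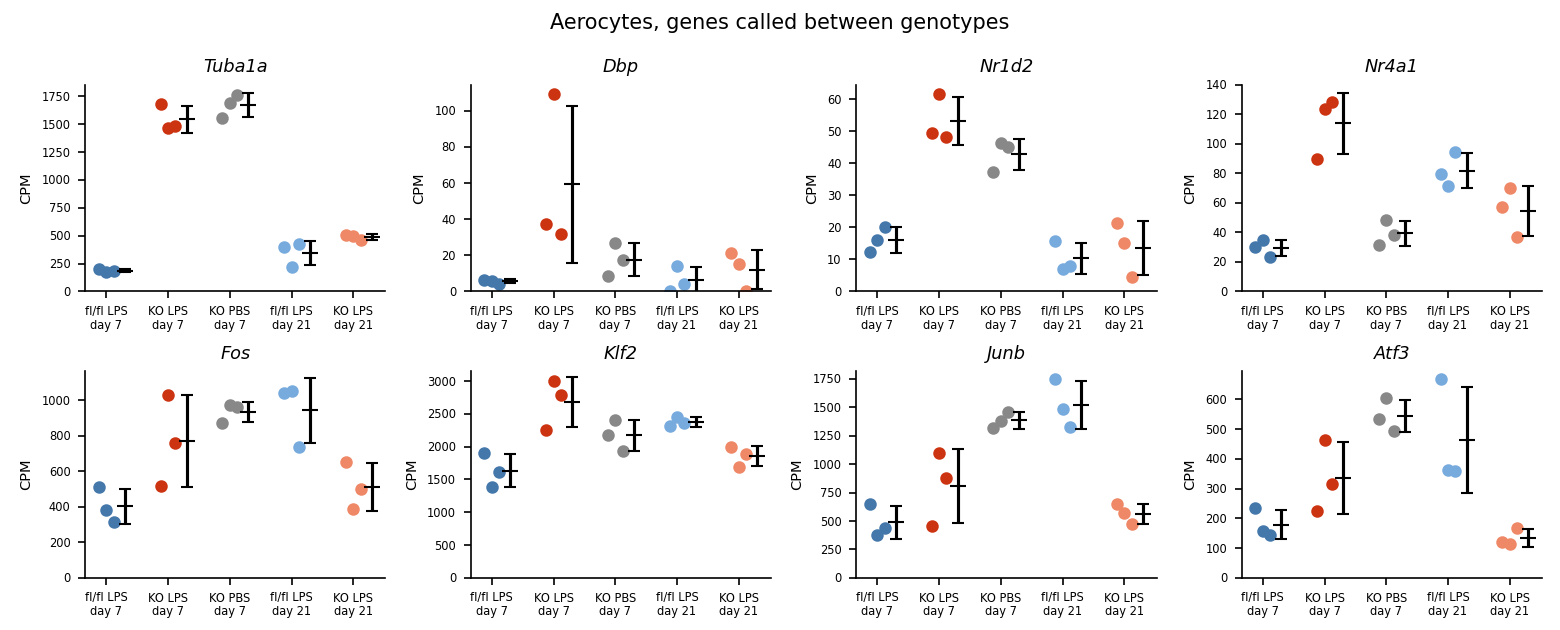
CPM (y axis, from 0) of 8 genes in aerocytes of each mouse (points) by group (x axis), with mean ± SD of 3 mice. Tuba1a is high in both day 7 KO groups, Dbp, Nr1d2 and Nr4a1 are higher in KO LPS than in fl/fl LPS mice at day 7, and Junb and Atf3 are lower in KO than in fl/fl mice at day 21.

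Within KO mice at day 7, LPS against PBS gave 545 genes called in aerocytes, 290 higher after LPS and 255 lower, or 6.82% of the genes tested (3.63% higher and 3.19% lower). The same 3 KO LPS mice entered this and the genotype comparison. In general capillary cells 1827 of 11093 genes were called. Basement membrane genes rose after LPS, heat shock genes fell, and the highest rises were those of epithelial genes read in aerocytes.

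All 9 basement membrane genes tested had a positive log2 fold change (median 0.83 against 0.01 over all genes). Of these 5 were called, where 3.63% of all genes were called higher. Col4a1, a chain of the collagen IV network under endothelium and AT1 cells, was at 1664, 1337 and 2067 CPM after LPS and 1230, 631 and 595 CPM after PBS (1.02 ± 0.20, edgeR adjusted p = 0.00182). Col4a2, its partner chain, was at 746, 721 and 1008 CPM against 531, 296 and 252 CPM (1.17 ± 0.19, edgeR adjusted p = 0.000233). The groups did not overlap for either, and PBS mouse 1, the only PBS mouse whose sex-linked UMIs were mostly Xist, was the closest to the LPS mice. That mouse also held 166 CPM of the summed fibroblast markers, against 36.1 and 33.4 CPM in PBS mice 2 and 3 and 231 to 326 CPM in the LPS mice, and the part of this in the collagen values was not tested. Sparc, a collagen-binding matricellular protein, rose by 1.63 ± 0.27 (edgeR adjusted p = 0.00028), the laminin chain Lamc1 by 0.72 and the collagen Col18a1 by 1.90. DESeq2 called 4 of the 5, not Lamc1. The response of Sparc differed from that of general capillary cells by the interaction test, while fl/fl mice at day 7 after LPS held 625, 900 and 1471 CPM. Both Itga1 and Itgb1, whose chains pair into a collagen and laminin receptor, were called higher, at 0.41 ± 0.13 (edgeR adjusted p = 0.0427) and 0.59 ± 0.17 (edgeR adjusted p = 0.0302), among 9 integrin genes tested, of which DESeq2 called 1, not Itgb1. Itgb1 was at 999, 825 and 1153 CPM after LPS and 821, 415 and 707 CPM after PBS.

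**Figure D4:**
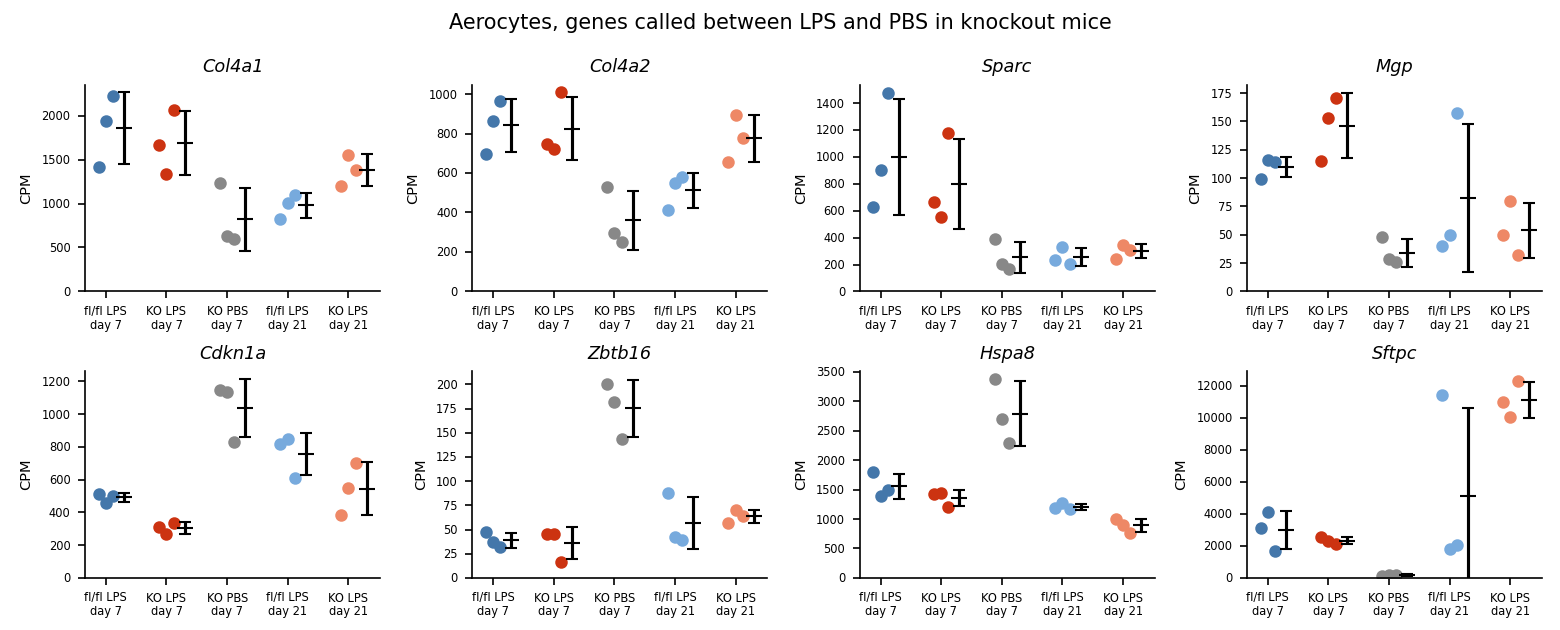
CPM (y axis, from 0) of 8 genes in aerocytes of each mouse (points) by group (x axis), with mean ± SD of 3 mice. Between the day 7 KO groups Col4a1, Col4a2, Sparc, Mgp and Sftpc are higher after LPS and Cdkn1a, Zbtb16 and Hspa8 higher after PBS.

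Among vascular signals, Mgp, the matrix Gla protein that binds BMP ligands, was at 115, 153 and 171 CPM after LPS and 48.4, 28.2 and 26.2 CPM after PBS (2.05 ± 0.24, edgeR adjusted p = 3.71e-06). Sox17, a factor of arterial endothelium, rose by 0.96 (125, 138 and 173 against 64.8, 88.9 and 66.9 CPM), and no LPS mouse overlapped a PBS mouse for either gene. The chemokine Cxcl12 rose by 0.90, its scavenging receptor Ackr3 by 1.31 and the death ligand Tnfsf10 by 0.60. DESeq2 did not call Cxcl12. In the BMP and TGF-β list the co-receptor Eng fell by 0.51, the target Id3 by 0.54 and the ligand Bmp6 by 0.53. These were the 3 called lower of 16 genes tested, and 1 was called higher (3.19% and 3.63% over all genes). DESeq2 called 3 of these 4, not Bmp6. Of the 15 further aerocyte genes 2 were called lower, Emp2 (3347, 3277 and 2674 against 4306, 4085 and 4126 CPM; -0.45 ± 0.12, edgeR adjusted p = 0.0196) and the myelin tetraspan gene Pmp22 (-0.43), and none higher (median -0.17 against 0.01 over all genes).

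Falls after LPS were led by Zbtb16, a zinc-finger repressor induced by glucocorticoids, at 45.9, 45.4 and 16.7 CPM after LPS and 200, 182 and 143 CPM after PBS (-2.30 ± 0.22, edgeR adjusted p = 2.12e-07). Klf9, another glucocorticoid-responsive factor, fell by 1.24 (97.1, 136 and 100.3 against 254, 273 and 249 CPM). Cdkn1a was at 314, 265 and 336 CPM after LPS and 1149, 1133 and 831 CPM after PBS (-1.79 ± 0.16, edgeR adjusted p = 7.69e-08). None of these groups overlapped, and fl/fl mice after LPS lay near the KO LPS mice for Zbtb16 and Klf9 (47.8, 36.7 and 32.4 CPM, and 167, 138 and 105 CPM). All 12 heat shock genes tested had a negative log2 fold change (median -0.38 against 0.01 over all genes). Of these 4 were called, where 3.19% of all genes were called lower. Hspa8, the constitutive HSP70 chaperone, was at 1433, 1441 and 1205 CPM against 3384, 2696 and 2289 CPM (-1.06 ± 0.13, edgeR adjusted p = 5.77e-06), and Hsp90ab1 fell by 0.58. The inducible HSP70 genes Hspa1a and Hspa1b, near-identical copies, fell by 0.80 and 0.96, the latter not called by DESeq2. Without KO LPS mouse 3 only 1 heat shock gene was called.

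No gene of the NF-κB feedback or interferon-stimulated lists was called higher by edgeR in aerocytes 7 days after LPS. Of all genes tested, only 3.63% were called higher and 3.19% lower, so small counts in a list are near these shares. Icam1 was at 616, 681 and 709 CPM after LPS and 719, 1137 and 1017 CPM after PBS (-0.54 ± 0.14, edgeR adjusted p = 0.0173). The NF-κB inhibitor Nfkbia fell by 0.54, and together they were the 2 called of 18 NF-κB feedback genes (DESeq2 1, not Nfkbia). Of 34 interferon-stimulated genes Irf1 (-0.75) and Stat2 (-0.72) were called lower and none higher (median -0.20; DESeq2 called 1, not Stat2). Of 20 immediate early genes 5 were called lower, namely Junb, Jund, Atf3, Egr1 and Ier2, and Nr4a1 higher (median -0.31). DESeq2 called 3 of these 6, not Atf3, Egr1 or Ier2. Of 17 MHC class I genes only B2m, the light chain, was called.

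Genes of other cell types rose with these changes in the libraries. The summed level of 10 AT2 markers in aerocytes was 2782 to 3503 CPM in KO LPS mice, 255 to 473 CPM in KO PBS mice and 2521 to 5223 CPM in fl/fl LPS mice at day 7, and none of the 10 was at 0 in any of these groups. Of 9 AT2 markers tested 8 were called higher after LPS (median 3.89), where 3.63% of all genes were called higher. Sftpc, the surfactant protein C gene, was at 2537, 2282 and 2110 CPM after LPS and 146, 188 and 213 CPM after PBS (3.64 ± 0.43, edgeR adjusted p = 3.71e-06). The 6 airway markers summed to 787 to 6723 CPM against 66.2 to 118 CPM, the 11 immune markers to 160 to 305 CPM against 15.9 to 19.0 CPM (7 and 6 of the 11 at 0, Ptprc, Cd3e, Cd79a, Nkg7 and Coro1a in both), and the 9 fibroblast markers to 231 to 326 CPM against 33.4 to 166 CPM (only Pdgfra, a gate gene, at 0). The 10 genes with the largest rises, Scgb3a2, Cbr2, Scgb1a1, Cxcl15, Sftpb, Wfdc2, Chil1, Lyz2, Sftpc and Sftpa1, are airway, AT2 or myeloid genes; Scgb3a2 had 30.0, 49.0 and 353 CPM after LPS against 0.654, 0 and 0 CPM. Cells with Epcam or Ptprc UMIs had been removed by the gate, and the part of free RNA or doublets in other genes that rose was not tested; with predicted doublets removed 475 genes were called, 432 of them among the 545.

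**Figure D5:**
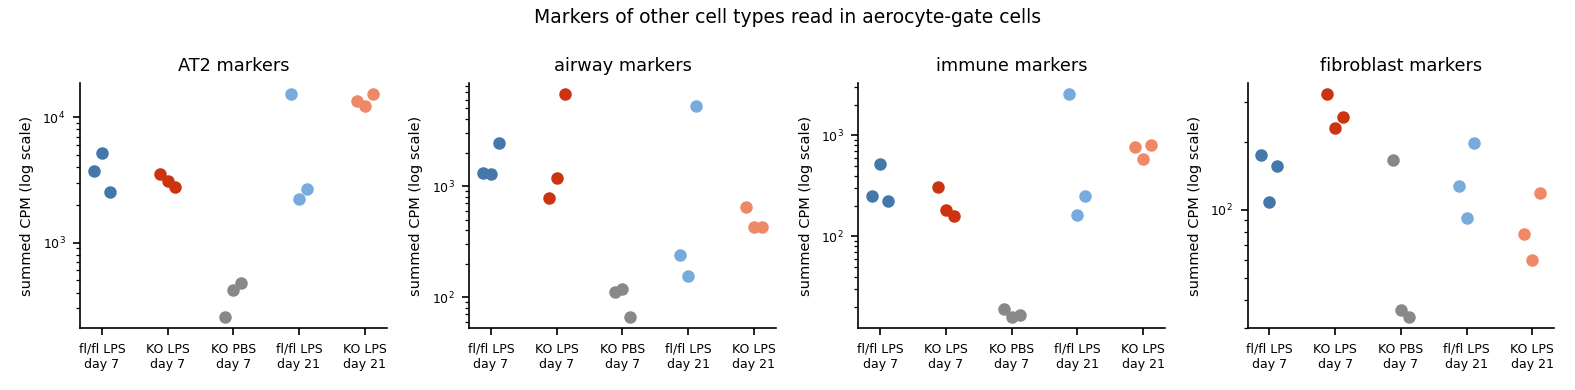
Summed CPM of markers of 4 other cell types in aerocytes of each mouse (points; y axis on a log scale) by group (x axis). KO PBS mice hold the lowest AT2, airway and immune sums, and at day 21 fl/fl mouse 1 holds 15180 CPM of AT2 markers, in the range of the KO mice (12215 to 15245 CPM), while the other 2 fl/fl mice hold 2235 and 2668 CPM.

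Where the LPS response of aerocytes differed from that of general capillary cells was asked with an interaction test, with the mouse as a block. It called 82 of 9699 genes (0.845%). Fxyd5, a regulator of the sodium pump and of cell adhesion, was at 305, 220 and 405 CPM after LPS and 119, 155 and 103 CPM after PBS in aerocytes (1.28), with 0.11 in general capillary cells (difference 1.12 ± 0.18, edgeR adjusted p = 2.57e-05). Nbl1, a secreted BMP antagonist, fell in aerocytes (-1.13; 82.9, 83.6 and 55.7 against 87.7, 216 and 177 CPM) and stood at 0.52 in general capillary cells (difference -1.61, edgeR adjusted p = 0.000673). Hlx, a homeobox factor, rose in both types but less in aerocytes (0.88 and 2.35), and Map1b, a microtubule-associated protein, was at -0.69 in aerocytes and 1.23 in general capillary cells. Among the listed genes the response also differed for the aerocyte genes Igfbp7, Cyp4b1, Cd34 and Pmp22, the general capillary genes Sema3c and Lpl, and the endothelial genes Ramp2, Sox17 and Sox18.

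At day 21 after LPS, 10 genes were called between KO and fl/fl aerocytes, 2 higher and 8 lower (0.125% of 7997; 0.025% and 0.1% by direction). The number rested on few cells, from 37 to 80 tagged aerocytes per mouse, and 736 genes had an unadjusted p under 0.05. Lcn2, the siderophore-binding acute phase protein lipocalin-2, was at 135, 140 and 156 CPM in KO mice and 15.9, 14.2 and 19.7 CPM in fl/fl mice (3.07 ± 0.54, edgeR adjusted p = 0.00572). It was the only 1 of 9 AT2 markers called, was higher in general capillary cells of KO mice as well (2.64), and stood beside AT2 marker sums of 12215 to 15245 CPM in KO mice against 15180, 2235 and 2668 CPM in fl/fl mice; the part of free RNA was not tested. DESeq2 gave Lcn2 no adjusted p. In fl/fl mouse 1, whose AT2 sum lay in the range of the KO mice, Lcn2 was at 15.9 CPM. Whether free Lcn2 RNA followed the AT2 sum was not tested. The nuclear RNA Malat1 was at 55653, 54764 and 58889 CPM in KO and 36436, 31537 and 36705 CPM in fl/fl mice (0.71 ± 0.10, edgeR adjusted p = 0.000286).

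Of the 8 genes lower in KO mice at day 21, 3 were among the 20 immediate early genes tested, where 0.1% of all genes were called lower. Junb, an AP-1 subunit, was at 648, 571 and 471 CPM in KO and 1748, 1488 and 1322 CPM in fl/fl mice (-1.41 ± 0.23, edgeR adjusted p = 0.00197). Atf3 was at 121, 115 and 169 CPM against 667, 363 and 359 CPM (-1.69 ± 0.30, edgeR adjusted p = 0.00572). Zfp36 fell by 1.21. The other 17 immediate early genes tested were not called by edgeR, while DESeq2 called 9 of the 20, and 19 of the 20 had a negative log2 fold change (median -0.67). At day 7 the same list leaned the other way (median 0.60). The difference between the days was not tested, since time, library and EPCAM enrichment cannot be told apart. The stress-inducible genes Ier3 (733, 687 and 705 against 2026, 1473 and 1985 CPM) and Sgk1 (185, 190 and 215 against 453, 641 and 410 CPM) stood at -1.35 and -1.29, and both were called, as was the transcriptional coregulator Sertad1 (-0.92). For Atf3 the fall was larger in aerocytes than in general capillary cells (difference -1.26 ± 0.24, edgeR adjusted p = 0.0210), where it was -0.50; that test called 4 of 9699 genes (0.0412%). Gm8797 was lower in KO mice at this time also (-1.35), with no adjusted p from DESeq2.

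Among 51 tested genes of the VEGF, endothelin and apelin, angiopoietin, Notch, junction and BMP and TGF-β lists, which hold the main signals of capillary endothelium, edgeR and DESeq2 called none between genotypes at either day. At an unadjusted p under 0.05 there were 15 of the 51 at day 7 and 13 at day 21. Over all 7997 genes tested there were 754 at day 7 and 736 at day 21. Whether the lists held more such genes than the rest was not tested. Kdr was at 2579, 2467 and 1911 CPM in fl/fl and 2363, 2280 and 2334 CPM in KO mice at day 7 (-0.02 ± 0.12, edgeR adjusted p = 0.978). At day 21 it was 2542, 3153 and 3007 CPM in fl/fl and 3665, 3639 and 3221 CPM in KO mice (0.29 ± 0.12, edgeR adjusted p = 0.462). Each KO mouse was thus above each fl/fl mouse at day 21 without passing the threshold. Of 6 MHC class II genes neither tool called any and none had an unadjusted p under 0.05, with Cd74 at 203 to 1611 CPM among the 3 KO PBS mice alone. At day 21 all 6 had a positive log2 fold change (median 0.92), with Cd74 at 384, 466 and 819 CPM in KO and 612, 107 and 98.7 CPM in fl/fl mice, where mouse 1 is again the one with the high AT2 marker sum. Over whole libraries Cd74 was found in 59.5% of KO and 17.8% of fl/fl aerocytes at that time, and in 100% of AT2 cells of both; the part of free RNA was not tested.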

How the data were processed

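Five-prime 10x libraries of 15 mice, counted as 1 per hashtag, were analysed from raw UMI counts per gene and barcode. The authors made these counts with Cell Ranger 3.1 against mm10, and Seurat 4.1.0 is named in the submitters' notes. Per the file headers the deposited counts are Cell Ranger output, without the removal of free RNA that the study's methods describe. Members, gene lists and tests were chosen with earlier results of these data known. A cell was given to a mouse when exactly 1 hashtag reached 4 times its median and at least 10 counts. UMIs were summed per mouse, with at least 20 cells, and tested with edgeR 4.0.16 (TMM, filterByExpr, quasi-likelihood) in 1 fit of 15 mice and 5 groups. Gate genes and Gm42418 were not tested; per mouse 126828 to 1541030 aerocyte UMIs entered. Response differences used both capillary types with the mouse as a block. Levels are CPM, n is mice, and ± beside a log2 fold change is its SE. The genes named were the 10 largest rises and falls without overlap of the groups and at least 50 CPM (leaving out Xist, Tsix, Y-linked and gate genes), called or abundant list members, the 6 smallest p of each response difference and 20 genes a side against general capillary cells; Cd74, Ifitm3 and Nbl1 were among values chosen after they were seen, and some genes called are not reported here. Shares were compared with exact permutation tests. Alternatives were DESeq2 1.42.0, RLE size factors, no filter on low counts, a fit of 1 time point, a stricter gate, thinning to 1500 UMIs, other hashtag rules, Scrublet doublets (scanpy 1.11.5) removed, the Xist share as a term and each mouse left out. The fit was tested on simulated data. RefSeq promoter windows were matched by symbol.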

Additional observations from a re-analysis of the deposited data

Results flagged for a closer look

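The genes below responded differently in aerocytes and in general capillary cells of the same mice (edgeR interaction test, adjusted p under 0.05); each difference is the aerocyte log2 fold change minus that of general capillary cells. Between genotypes at day 7 the difference was -1.76 for Chil1, -2.22 for Slc34a2, -1.79 for Sftpa1, -1.86 for Sftpb and -3.18 for S100g, and 1.14 for Hspa1a. The surfactant and AT2 genes Slc34a2, Sftpa1 and Sftpb stood at -0.10, -0.73 and -0.18 in aerocytes and at 2.13, 1.07 and 1.71 in general capillary cells. The AT2 marker sums in aerocytes overlapped between the genotypes (2521 to 5223 CPM in fl/fl and 2782 to 3503 CPM in KO mice), and the part of free RNA of AT2 cells was not tested.

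Between LPS and PBS in KO mice the difference was 1.12 for Fxyd5, -1.52 for Hlx, -1.91 for Map1b, -1.01 for the small heat shock gene Hspb1, -2.28 for the metallothionein Mt1 and -4.15 for the predicted gene Gm21541. Hspb1 was at 1784, 1553 and 1205 CPM after LPS and 2011, 1917 and 1777 CPM after PBS in aerocytes (-0.35), against 0.60 in general capillary cells. At day 21 it was -3.26 for Slc34a2, -1.83 for Sftpa1, -2.18 for Lyz2 and -1.26 for Atf3, beside an AT2 marker sum of 15180 CPM in fl/fl mouse 1; Slc34a2 was at 365 CPM in that mouse and 35.6 and 67.1 CPM in the other 2 fl/fl mice.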

How the results depend on the processing

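No paired analysis was possible because each group is 1 library and hashtag numbers do not tie mice across groups. The count of genes called between genotypes at day 7 (85) became 150 without a filter on low counts, 38 with cells thinned to 1500 UMIs, 44 with the Xist share as a term (13 of them among the 85) and 43 to 77 with 1 mouse left out, lowest without KO mouse 2. The LPS against PBS count (545) became 215 after thinning and 278 to 674 with 1 mouse left out, lowest without KO LPS mouse 3. The day 21 count (10) became 48 with DESeq2, 61 without the filter, 31 with 1 time point in the fit, 6 after thinning, 17 with cells given to a hashtag over 2 times the next (an alternative added after seeing the data) and 8 to 23 with 1 mouse left out, highest without fl/fl mouse 1. Counts of response differences were 16, 82 and 4; thinning gave 6, 26 and 1, the added hashtag rule 6 and 142 in the first pair, and leaving out 1 mouse 3 to 20, 30 to 171 (highest without PBS mouse 1) and 0 to 12. Thinning leaves fewer UMIs and cells; the cause of the other shifts was not tested. Differences in aerocyte share kept their direction in every alternative run, from -5.98 to -10.3, -3.73 to -8.29 and 8.13 to 16.0 points, but the last 2 pairs of groups overlapped with a top hashtag over 80%. Of 2103 alternatives over 133 named results, 1726 kept direction and call, 339 lost the call, 20 gained it and 18 turned.

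The turned log2 fold changes of the effect in aerocytes were mostly of genes not called. Between genotypes at day 7, thinning gave 0.35 for Chil1, 0.25 for Sftpa1, 0.98 for Sftpb and 1.21 for Slc34a2, the added hashtag rule 0.064 for Sftpb and 0.037 for Slc34a2, and removal of predicted doublets 0.59 and 0.37. Leaving out 1 mouse gave -0.405 to 0.385 for Sftpb and -0.393 to 0.184 for Slc34a2. Between LPS and PBS Gm21541 ran from -0.25 without KO LPS mouse 3 to 6.55. At day 21 thinning gave 0.83 for Lyz2 and 0.66 for Slc34a2, a top hashtag over 80% gave 1.60 and 1.40, and leaving out 1 mouse gave -0.903 to 1.74 and -0.896 to 0.902, with the positive values without fl/fl mouse 1. The day 21 comparisons rest on 37 to 80 tagged aerocytes per mouse.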

Other observations

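Genes on chromosome 17 were 13 of the 85 called between genotypes at day 7 (15.3%) and 404 of the 7997 tested (5.05%). In the LPS against PBS comparison genes on this chromosome were 28 of 545 (5.14%). The 13 included Dusp1, Cdkn1a, H2-Q6 and H2-Q7, described above, as well as Abca3 and Rps2. The part of chromosome position in these calls was not tested. Abca3 and Rps2, the gene of a ribosomal protein, lie within the same stretch of that chromosome (starts at 24351950 and 24718116, GRCm38) and went in opposite directions. Rps2 was at 309, 358 and 440 CPM in KO LPS mice and 602, 601 and 849 CPM in fl/fl mice at day 7 (-0.91 ± 0.18, edgeR adjusted p = 0.00601). Among KO PBS mice, mouse 1 stood apart for both genes, with 48.4 CPM of Abca3 and 601 CPM of Rps2, in the fl/fl range, where mice 2 and 3 had 186 and 217 CPM of Abca3 and 349 and 342 CPM of Rps2. At day 21 the Abca3 levels were 119, 64.1 and 47.4 CPM in fl/fl and 285, 216 and 297 CPM in KO mice. The Rps2 levels were 675, 776 and 604 CPM and 384, 256 and 343 CPM. These values were picked after they were seen.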
